A study of Mus musculus with 6 samples.

Results

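Of the 35 genes named here for peroxisome biogenesis and peroxisomal lipid metabolism, 34 were in the table of 13283 genes and were found by their symbol, 13 PEX genes (peroxins) and 21 genes of metabolism. Slc27a2, an acyl-CoA synthetase of very long chains, was not analysed here. RNA-seq covered 3 Scr and 3 MICT1 KO cultures of an immortalized mouse brown preadipocyte (BAT) line that expresses Cas9, differentiated to brown adipocytes and treated on day 6 with 10 µM forskolin, an activator of adenylyl cyclase, for 6 h. Scr cells (genotype WT in the labels) carried a scrambled sgRNA, and MICT1 KO cells came from pools of cells edited with an sgRNA against MICT1, a microprotein gene, and sorted for GFP, not from clones. The maintenance medium of both groups held insulin, T3 and rosiglitazone, an agonist of PPARγ, and the labels do not tell which sgRNA pool a MICT1 KO library came from.

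Peroxisomes shorten very long and branched fatty acids by β-oxidation, make the ether bond of plasmalogens and break down the hydrogen peroxide that their oxidases release. They hold no DNA, so all their proteins are made in the cytosol, and PEX proteins insert the membrane proteins, import the matrix enzymes and help the organelle multiply. In brown fat, peroxisomes are numerous and their genes include known targets of PPAR nuclear receptors.

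The values are the authors' normalized signal per gene, read here as estimated reads divided by a scaling factor per library, and all 34 genes passed the filter on low values (at least 10 in at least 3 libraries). Of the 13 PEX genes 10 were lower and 0 higher in MICT1 KO cells at an adjusted p under 0.05 (limma-trend, Benjamini-Hochberg over 12507 genes), and of the 21 metabolic genes 13 were lower and 2 higher. All 13 PEX genes had a log2 fold change below 0. Among all genes tested 56.9% were called, 28.3% lower and 28.5% higher, so a change in itself was common in these libraries. The lower genes made up 76.9% of the PEX and 61.9% of the metabolic genes. A fall of at least 2-fold was found for 6 PEX and 7 metabolic genes, against 5.76% of all genes, and a rise of that size for 0 of either class, against 7.99%. Median log2 fold changes were -0.68 (PEX) and -0.77 (metabolic genes), beside -0.0053 for all genes tested. The largest falls were those of Pex11a, Scp2, Abcd2, Crat and Pex5, while Acox3 and Crot rose. Since the genes were named with earlier results of these libraries known, no test was made of the lists themselves, and the difference between the PEX and the metabolic genes was not tested.

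**Figure D1:**
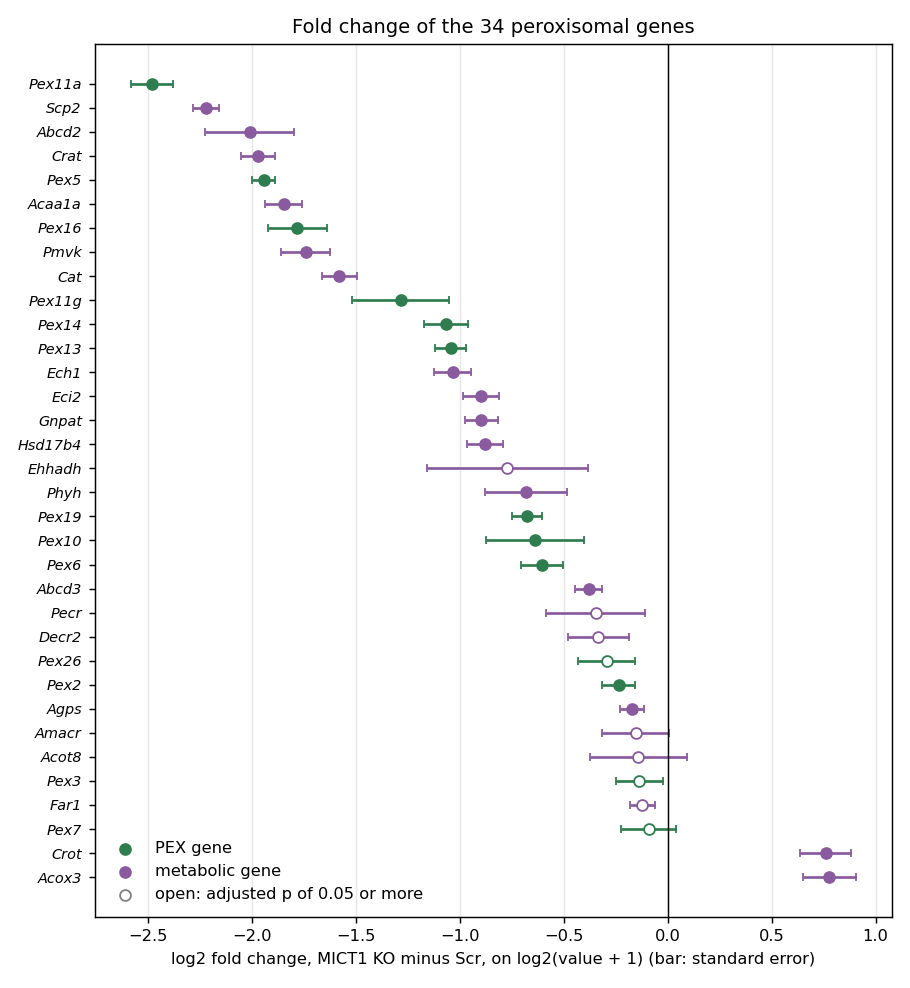
Log2 fold change of each gene, MICT1 KO minus Scr on the log2(value + 1) scale (x axis), with its standard error as a bar, ordered by size. Green points are PEX genes, purple points metabolic genes and open points genes with an adjusted p of 0.05 or more. The genes run from -2.48 for Pex11a to 0.78 for Acox3, and both classes are spread over the falls.

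In these cultures the fall of peroxisomal genes went together with that of adipocyte genes. All 9 adipocyte markers were lower, their summed value was 125459 to 149718 in Scr and 14348 to 20832 in MICT1 KO libraries, and Adipoq was at 5.32 ± 2.24 (SD, n = 3) in MICT1 KO. Among progenitor markers 2 of 4 tested were lower (log2 fold change -0.19 for Pdgfra and -3.47 for Dlk1) and 2 higher (0.48 for Pdgfrb and 1.39 for Ly6a). Their summed value was 4363 to 5011 in Scr and 4693 to 4893 in MICT1 KO libraries. This sum consists mostly of Pdgfra and Pdgfrb and hides the opposite changes. Of 10 macrophage markers 3 were in the table and 0 were called (sums of 104 to 153 and 129 to 162), and of 7 muscle markers 2 were in the table and 0 were called (sums of 62.1 to 77.1 and 54.8 to 94.4), with 0 of these 5 genes at an unadjusted p under 0.05 in limma-trend. Ucp1, which defines brown fat, was low in both groups, at 20.8 to 30.5 in Scr and 1.05 to 9.33 in MICT1 KO libraries. In bulk RNA, fewer adipocytes and less RNA of a gene per adipocyte cannot be told apart, and the part of the adipocyte share in the values below was not tested. With 3 cultures per group of one line, the error covers these cultures only, and the targeted gene itself was not analysed here.

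The genes of the PEX11 proteins, which elongate the peroxisomal membrane and promote division, were both lower. Pex11a (chromosome 7, from 79735957 to 79743131, GRCm38) had the largest fall of the 34 genes. Its values were 1155, 1068 and 1221 across the Scr libraries and 188, 230 and 198 across those of MICT1 KO. The groups lay far apart, and the gene was 5.59-fold lower (log2 fold change -2.48, standard error (SE) 0.10, limma-trend adjusted p = 1.71e-14). Ranked from the most lowered, Pex11a stood at 137 of the 12507 genes tested. Pex11g (chromosome 8, from 3457105 to 3467648), a paralog at a lower level, had values of 117, 90.8 and 123 across the Scr libraries and 45.8, 49.5 and 38.4 across those of MICT1 KO. It fell 2.43-fold (log2 fold change -1.28, SE 0.23, limma-trend adjusted p = 8.54e-05). RPKM divides by the exon bases of all annotated transcripts of a gene, merged. In RPKM, Pex11a was 10.6, 12.5 and 10.6 times Pex11g in Scr and 4.38, 4.95 and 5.51 times in MICT1 KO libraries. Gm44775, a gene model without a known function, covers 41.1% of the exon bases of Pex11g on the opposite strand, and the strand setting of the counting is not given in the sources used here.

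Forskolin acts through cAMP, whose textbook response element (CRE) reads TGACGTCA, the same on both strands. The promoters of these PEX11 genes are shown, with that of Pex13, another lower gene, picked because a CRE was found there. Forskolin was given to both groups, and the part of a CRE in the values was not tested. Each run below holds 250 bases before the RefSeq start and 20 after it (GRCm38.p6, minus strand), with a CRE in capitals where there is one (the run of Pex11a holds none). Pex11a lies at chr7:79743112-79743381, Pex11g at chr8:3467629-3467898 and Pex13 at chr11:23665864-23666133.
Pex11a: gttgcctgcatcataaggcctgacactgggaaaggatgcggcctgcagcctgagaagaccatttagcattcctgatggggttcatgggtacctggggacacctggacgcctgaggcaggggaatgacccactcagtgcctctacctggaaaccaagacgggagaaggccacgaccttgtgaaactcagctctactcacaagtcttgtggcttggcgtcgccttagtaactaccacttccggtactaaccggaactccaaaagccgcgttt
Pex11g: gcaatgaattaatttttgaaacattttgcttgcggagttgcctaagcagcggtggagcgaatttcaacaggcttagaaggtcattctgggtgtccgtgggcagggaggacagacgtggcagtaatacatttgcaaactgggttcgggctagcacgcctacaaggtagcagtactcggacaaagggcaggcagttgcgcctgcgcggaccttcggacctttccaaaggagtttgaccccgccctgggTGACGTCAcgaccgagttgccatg
Pex13: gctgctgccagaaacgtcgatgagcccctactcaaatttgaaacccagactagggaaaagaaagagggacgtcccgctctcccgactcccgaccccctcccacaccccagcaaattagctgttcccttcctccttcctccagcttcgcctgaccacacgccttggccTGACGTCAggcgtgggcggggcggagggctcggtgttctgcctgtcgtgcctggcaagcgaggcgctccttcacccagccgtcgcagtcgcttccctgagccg

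The RefSeq promoter table had windows of 300 bases for 28 of the 34 genes. A CRE stood in 2 of them, those of Pex11g and Pex13, and in 3.51% of the 10578 genes of the data that had a window. The DR1 motif that PPAR and RXR receptors bind, searched on both strands as AGGNCANAGGNCA, was found in 0 of the 28 and in 0.284% of the 10578. These are matches of letters in a short window, and more distant elements were not searched.

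Of the receptor genes of matrix import, Pex5 was lower and Pex7 did not pass. Pex5 encodes the receptor of the C-terminal signal (PTS1) that most matrix enzymes carry, and Pex7 that of the rarer N-terminal signal (PTS2). Pex5 (chromosome 6, from 124396816 to 124415944) was the most abundant of the 34 genes per length in both groups, at 118.9 RPKM in Scr and 31.0 RPKM in MICT1 KO. Its values were 7423, 7987 and 7620 across the Scr libraries and 1972, 2044 and 1964 across those of MICT1 KO, with little spread in either group. The fall was 3.85-fold (log2 fold change -1.94, SE 0.054, limma-trend adjusted p = 3.56e-17). For Pex7 (chromosome 10, from 19860090 to 19907674) the values were 269, 297 and 285 across the Scr libraries and 317, 231 and 256 across those of MICT1 KO. The groups of Pex7 overlapped, with a log2 fold change of -0.092 (SE 0.13, limma-trend adjusted p = 0.577). Within a library, the RPKM of Pex5 was 82.0 to 84.6 times that of Pex7 in Scr and 19.05 to 27.2 times in MICT1 KO. The merged exon length was 3943 bases for Pex5 and 12092 for Pex7, and the size of these ratios depends on it. The relative difference between the groups does not. This pair was chosen after its values were seen, and its difference is given as a description.

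Pex13 and Pex14, which form the docking site of the loaded receptor at the membrane, were both lower, by 2.06-fold and 2.10-fold. Pex13 (chromosome 11, from 23646843 to 23665883) had values of 1462, 1416 and 1531 across the Scr libraries and 681, 684 and 774 across those of MICT1 KO, and Pex14 values of 979, 883 and 1125 and of 495, 405 and 527. The groups were apart for both, with log2 fold changes of -1.04 (SE 0.075) and -1.07 (SE 0.10) and adjusted p of 1.82e-10 and 2.07e-08 from limma-trend. On the opposite strand, an antisense gene covers 28.3% of the exon bases of Pex14.

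The receptors are recycled by a ring of ubiquitin ligases and pulled from the membrane by an AAA ATPase complex, and 3 of the 4 genes analysed here were lower, with smaller fold changes. Pex2, a RING ligase, went from 889 ± 48.2 (SD, n = 3) to 754 ± 20.1 (SD, n = 3), with a log2 fold change of -0.24 (limma-trend adjusted p = 0.0130). Pex10, its partner, was low and variable, with values of 118, 107 and 98.7 across the Scr libraries and 50.5, 97.99 and 65.3 across those of MICT1 KO. Its highest MICT1 KO value came within 1 unit of its lowest Scr value, and its call (-0.64, limma-trend adjusted p = 0.0268) was lost in 4 of the 6 fits with 1 library removed. Removing Scr replicate 1 gave an adjusted p of 0.0907, Scr replicate 2 gave 0.0628, KO replicate 1 gave 0.140 and KO replicate 3 gave 0.0602. Without Scr replicate 1, Pex2 had an adjusted p of 0.0535. Pex6, the ATPase, fell from 567 ± 36.8 (SD, n = 3) to 373 ± 28.1 (SD, n = 3), with a log2 fold change of -0.60 (adjusted p = 2.80e-05). Pex26, its membrane anchor, had 298 ± 50.1 (SD, n = 3) and 241 ± 17.2 (SD, n = 3), with a log2 fold change of -0.29 that did not pass (adjusted p = 0.0715). Of the alternatives, Pex26 passed only without Scr replicate 2 (-0.40, adjusted p = 0.0312). Without Scr replicate 1 it was weaker (-0.17, adjusted p = 0.356).

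Of the 3 genes that place proteins in the peroxisomal membrane, 2 were lower and Pex3 did not pass. Pex16 (chromosome 2, from 92374676 to 92381220), which recruits Pex3 to the membrane, had values of 401, 377 and 365 across the Scr libraries and 98.2, 114 and 119 across those of MICT1 KO. Its fall was 3.44-fold (log2 fold change -1.78, SE 0.14, limma-trend adjusted p = 7.76e-10). Pex19, the chaperone and carrier of membrane proteins, fell 1.60-fold, from 1382 ± 63.8 (SD, n = 3) to 863 ± 36.4 (SD, n = 3), with an adjusted p of 6.02e-08. Pex3, the membrane receptor of Pex19, had values of 352, 339 and 428 across the Scr libraries and 345, 328 and 341 across those of MICT1 KO, and the groups overlapped (-0.14, limma-trend adjusted p = 0.323). The value of Pex3 did not come to whole reads in 5 of the 6 libraries, and 5.25% of its exon bases overlap Adat2.

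**Figure D2:**
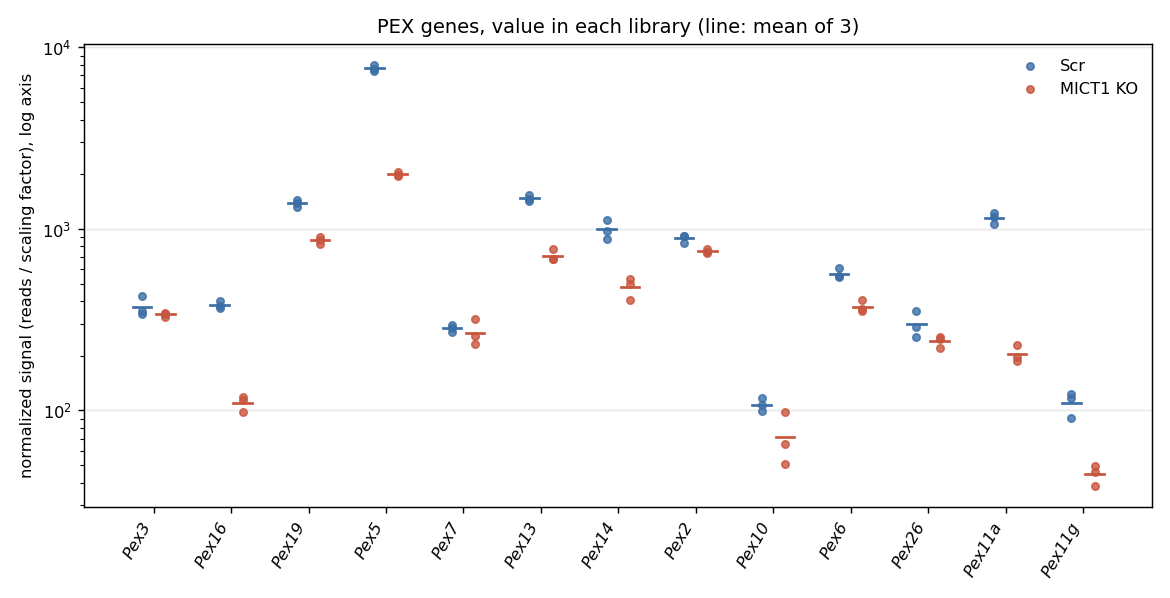
Normalized signal of the 13 PEX genes in each library on a log axis, Scr in blue and MICT1 KO in red, with a line at the mean of 3. The groups are clearly apart for Pex5, Pex11a, Pex13, Pex14 and Pex16 and overlap for Pex3 and Pex7, while Pex5 is the highest gene in both groups.

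Summed over the 13 PEX genes, the values were 15469 to 15990 in Scr and 6407 to 6490 in MICT1 KO libraries, and the 3 MICT1 KO values lay below the 3 Scr values in 11 of the 13 genes, against 31.2% of all genes tested. The metabolic genes summed to 22581 to 23977 and to 12123 to 12830, with MICT1 KO below Scr in 16 of 21 genes and above it in 2, against 30.9% of all genes for the latter.

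Fatty acids enter peroxisomes as CoA esters through ABC transporters of subfamily D. Abcd2 (chromosome 15, from 91145871 to 91192007), which prefers very long and polyunsaturated chains, had values of 194, 172 and 165 across the Scr libraries and 53.4, 36.9 and 40.4 across those of MICT1 KO. It fell 4.03-fold (log2 fold change -2.01, SE 0.21, limma-trend adjusted p = 6.99e-08). Abcd3, which carries branched and dicarboxylic chains, had a higher level per length in Scr (18.99 RPKM, against 1.82 RPKM for Abcd2) and fell 1.30-fold, from 2049 ± 97.8 (SD, n = 3) to 1573 ± 59.3 (SD, n = 3), with an adjusted p of 2.88e-05.

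In the core of β-oxidation the thiolase genes fell most. Scp2 (chromosome 4, from 108043830 to 108144971), whose longer product is the thiolase of branched chains and whose shorter product is a sterol carrier protein, had values of 3696, 3625 and 3948 across the Scr libraries and 828, 777 and 812 across those of MICT1 KO. The fall was 4.66-fold (log2 fold change -2.22, SE 0.063, limma-trend adjusted p = 4.17e-17), and the gene table does not separate the products. Acaa1a (chromosome 9, from 119341028 to 119350296), the thiolase of straight chains, had values of 1004, 961 and 1033 and of 285, 268 and 278, a fall of 3.60-fold (log2 fold change -1.85, SE 0.090, adjusted p = 2.72e-13). Its close paralog Acaa1b can share reads with it, and the values of Acaa1a were not whole reads in 5 of 6 libraries. The sum of both paralogs was 1426, 1337 and 1616 across the Scr libraries and 304, 293 and 307 across those of MICT1 KO. As a ratio of group means the sum was 4.84-fold lower, a fall that does not depend on how reads were divided between the paralogs. On the opposite strand, Myd88 overlaps 6.57% of the exon bases of Acaa1a. Hsd17b4, the bifunctional enzyme that acts on branched and very long chains, fell 1.84-fold, from 871 ± 46.4 (SD, n = 3) to 473 ± 31.9 (SD, n = 3), with an adjusted p of 2.63e-08.

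Ehhadh, the other bifunctional enzyme and the lowest of the 34 genes per length, had values of 22.7, 35.2 and 42.7 across the Scr libraries and 13.3, 22.1 and 21.8 across those of MICT1 KO. Its groups were apart by under 1 unit, and the log2 fold change of -0.77 (SE 0.39) did not pass (limma-trend adjusted p = 0.0955). Acox3, an acyl-CoA oxidase that acts on branched chains, went the other way. Its values were 174, 208 and 189 across the Scr libraries and 324, 346 and 310 across those of MICT1 KO, all of the latter above the former. The rise was 1.71-fold (log2 fold change 0.78, SE 0.13, limma-trend adjusted p = 2.80e-05).

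Genes that prepare unusual chains for β-oxidation were lower or did not pass. Ech1 and Eci2, isomerases of unsaturated chains that also occur in mitochondria, had values of 1619, 1764 and 1711 against 938, 699 and 863, and of 892, 908 and 930 against 516, 444 and 508. Their log2 fold changes were -1.04 (SE 0.088) and -0.90 (SE 0.086), with adjusted p of 2.46e-09 and 1.55e-08 from limma-trend. Decr2, the dienoyl-CoA reductase, had 231 ± 29.6 (SD, n = 3) and 182 ± 12.7 (SD, n = 3) and did not pass (-0.33, adjusted p = 0.0564). Of the alternatives, Decr2 passed only without Scr replicate 1 (-0.44, adjusted p = 0.0227). Without Scr replicate 3 it was weaker (-0.27, adjusted p = 0.179). Pecr, an enoyl-CoA reductase, overlapped between the groups (-0.35, adjusted p = 0.224). For the methyl-branched chains, Phyh, the hydroxylase that starts α-oxidation of phytanic acid, fell from 143 ± 21.1 (SD, n = 3) to 88.8 ± 15.8 (SD, n = 3), with a log2 fold change of -0.68 (adjusted p = 0.00582). Amacr, the racemase of such chains, overlapped between the groups (-0.15, adjusted p = 0.434).

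Shortened chains leave the peroxisome as free acids or carnitine esters, and here the acyltransferase genes moved in opposite directions. Crat (chromosome 2, from 30400476 to 30416017) encodes carnitine acetyltransferase, shared by peroxisomes and mitochondria, and Crot (chromosome 5, from 8966033 to 8997146) the peroxisomal octanoyltransferase for medium chains. Crat had values of 2499, 2342 and 2694 across the Scr libraries and 604, 591 and 727 across those of MICT1 KO, a fall of 3.93-fold (log2 fold change -1.97, SE 0.081, limma-trend adjusted p = 1.71e-14). Crot had values of 269, 296 and 227 across the Scr libraries and 485, 399 and 455 across those of MICT1 KO, a rise of 1.69-fold (log2 fold change 0.76, SE 0.12, adjusted p = 2.10e-05). Neither gene had overlapping groups, and the RPKM of Crat was 8.02 to 12.02 times that of Crot in Scr but 1.26 to 1.62 times in MICT1 KO libraries. Acot8, the main peroxisomal thioesterase, had 120.7, 76.0 and 69.2 across the Scr libraries and 73.4, 73.8 and 87.1 across those of MICT1 KO, which overlapped (-0.14, adjusted p = 0.629). Without Scr replicate 1 its log2 fold change was above 0 (0.10, adjusted p = 0.758).

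Ether lipid synthesis starts in the peroxisome with Gnpat, which acylates dihydroxyacetone phosphate, and Agps, which exchanges the acyl for an alkyl chain made by Far1. Gnpat (chromosome 8, from 124863033 to 124890057) had values of 1653, 1430 and 1747 across the Scr libraries and 872, 805 and 910 across those of MICT1 KO, a fall of 1.86-fold (log2 fold change -0.90, SE 0.079, limma-trend adjusted p = 4.75e-09). Agps and Far1 had smaller log2 fold changes. Agps went from 2122 ± 53.1 (SD, n = 3) to 1881 ± 14.9 (SD, n = 3), with a log2 fold change of -0.17 (adjusted p = 0.0153, and 0.0713 without Scr replicate 2). Far1 went from 2510 ± 95.2 (SD, n = 3) to 2307 ± 137 (SD, n = 3), with a log2 fold change of -0.12 that did not pass (adjusted p = 0.0952), although its groups were apart by a margin of under 10 units. Of 5 genes of the later steps in the endoplasmic reticulum, 2 were lower (Chpt1 by -0.64 and Tmem189, the plasmalogen desaturase, by -0.40) and Cept1 was higher (0.37), on the log2 scale. Among all genes tested 28.3% were lower and 28.5% higher, so these small counts do not set the later steps apart.

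Cat (chromosome 2, from 103453904 to 103485153), the catalase that removes hydrogen peroxide, had values of 1786, 1953 and 2333 across the Scr libraries and 710, 654 and 654 across those of MICT1 KO. The Scr values varied, but all lay well above the MICT1 KO values, and the fall was 2.99-fold (log2 fold change -1.58, SE 0.085, limma-trend adjusted p = 1.45e-12). Pmvk, phosphomevalonate kinase of isoprenoid and sterol synthesis, whose place in the peroxisome is debated, had values of 862, 653 and 680 across the Scr libraries and 198, 217 and 235 across those of MICT1 KO. It fell 3.34-fold (log2 fold change -1.74, SE 0.12, adjusted p = 6.88e-11). Mvk, the kinase of the step before, was not among the 35 genes and did not pass (0.19, adjusted p = 0.387).

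**Figure D3:**
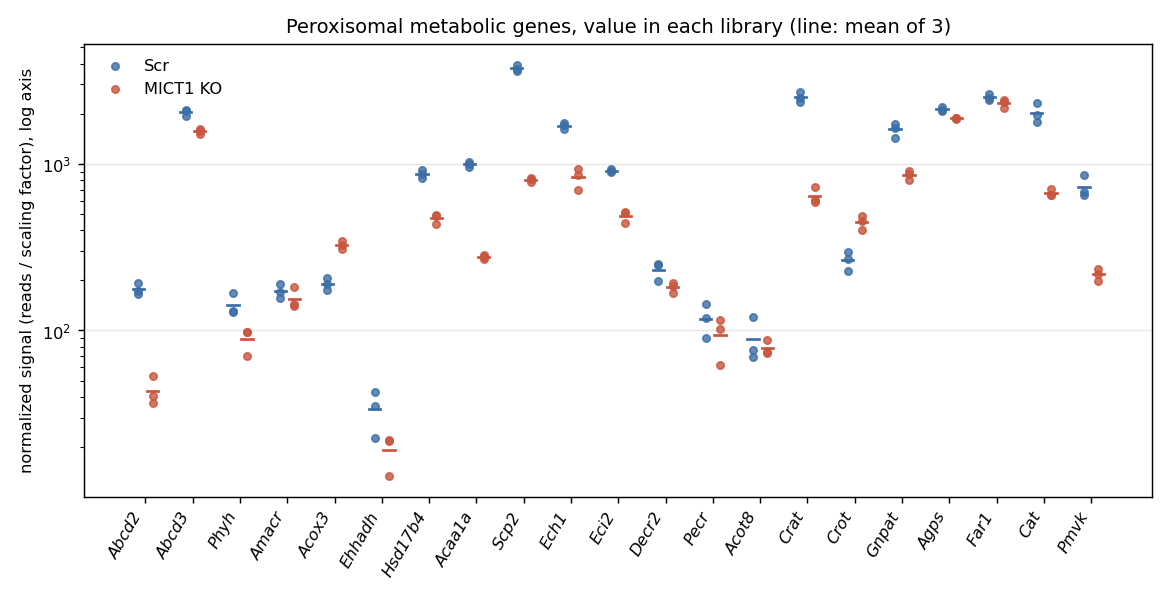
Normalized signal of the 21 metabolic genes in each library on a log axis, Scr in blue and MICT1 KO in red, with a line at the mean of 3. Scp2, Crat, Cat, Acaa1a, Abcd2 and Pmvk show wide gaps with MICT1 KO below, Acox3 and Crot lie higher in MICT1 KO, and Amacr, Pecr and Acot8 overlap.

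Per length, the order of the genes changed between the groups. In Scr, Pex5 (118.9 RPKM) was followed by Scp2 (66.0 RPKM), Cat (47.3 RPKM), Ech1 (45.4 RPKM) and Crat (28.5 RPKM). In MICT1 KO, Pex5 (31.0 RPKM) was followed by Ech1 (22.4 RPKM), Pex2 (20.3 RPKM), Far1 (17.6 RPKM) and Cat (15.8 RPKM). Pex11a went from rank 10 to rank 21 and Crat from rank 5 to rank 14, while Crot went from rank 27 to rank 17. Ranks were taken on group means and were not tested in single libraries. Neighbouring ranks can lie close, as Pex11a (3.95 RPKM), Acaa1a (3.85 RPKM) and Pex16 (3.81 RPKM) did in MICT1 KO. The median coefficient of variation between replicates over the 34 genes was 7.76% in Scr and 7.82% in MICT1 KO.

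Other peroxisomal genes, which were not among the 35, had the same prevailing direction. Of 30 further genes of peroxisomal enzymes and membrane proteins 17 were lower and 2 higher, against 28.3% and 28.5% of all genes tested. Their median log2 fold change was -0.38, and 13 were lower without Scr replicate 3. The largest falls were those of Acaa1b (-4.19, adjusted p = 7.11e-13) and Acot4, a thioesterase (-3.09, adjusted p = 1.43e-09), and the rises those of Dhrs4, a carbonyl reductase (0.56, adjusted p = 0.00355), and Prdx5, a peroxiredoxin also found in mitochondria (0.44, adjusted p = 1.08e-06, all from limma-trend). Among 7 genes of organelle fission and turnover 4 were lower and 1 higher (median log2 fold change -0.20). That count of lower genes was 1 with scaling to the upper quartile or without KO replicate 3, and 2 without Scr replicate 1, 2 or 3. The higher one was Fis1, a membrane adaptor of the fission machinery (0.26, adjusted p = 0.00838).

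Mitochondrial β-oxidation, which takes up the chains that peroxisomes have shortened, also stood lower. Of its 18 genes 15 were lower and 1 was higher, with a median log2 fold change of -0.50, and 4 were at least 2-fold lower. The largest falls were those of Acadm (-1.86) and Hadh (-1.69), and the gene that rose was Cpt1a (0.54, limma-trend adjusted p = 2.35e-08), the carnitine palmitoyltransferase of mitochondrial entry. The lower genes made up 83.3% of these 18 genes, against 28.3% of all genes tested. The difference from the peroxisomal genes was not tested.

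**Figure D4:**
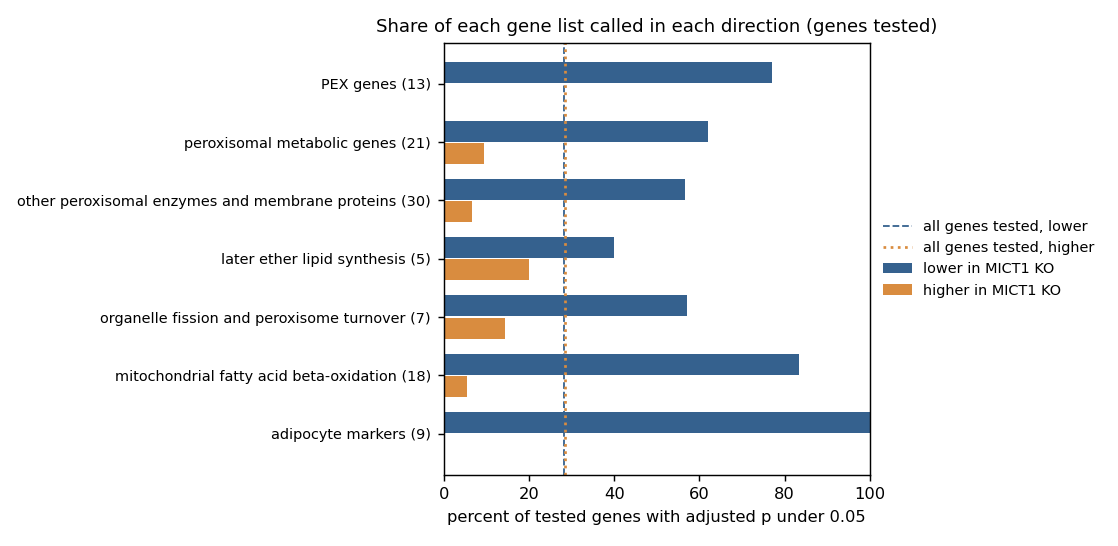
Percent of the tested genes of each list with an adjusted p under 0.05 in limma-trend, lower (blue) or higher (orange) in MICT1 KO cells, with the number tested in brackets. Dashed and dotted lines mark the shares over all genes tested, 28.3% lower and 28.5% higher. In each list shown the lower share exceeds the first line while the higher share is below the second. For the fission and turnover list this is not stable. It has only 1 lower gene with scaling to the upper quartile or without KO replicate 3, and 2 without Scr replicate 1, 2 or 3.

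Nuclear receptors and coactivators known to act on peroxisomal genes were lower in 5 of the 6 tested. Pparg fell from 3742 ± 467 (SD, n = 3) to 754 ± 66.7 (SD, n = 3), with a log2 fold change of -2.31 (limma-trend adjusted p = 1.69e-15), and the coactivator gene Ppargc1b fell from 445 ± 42.2 (SD, n = 3) to 24.1 ± 5.86 (SD, n = 3), with a log2 fold change of -4.17 (adjusted p = 3.41e-13). Ppara was low in both groups, with 30.6 ± 10.3 (SD, n = 3) and 18.9 ± 0.981 (SD, n = 3), and did not pass (-0.60, adjusted p = 0.195). The part of these factors in the peroxisomal values was not tested.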

How the data were processed

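The authors deposited a table of 13283 genes, by symbol, with a normalized signal per library, not raw counts. Per the methods, stranded total RNA libraries were aligned to mm10 with Partek, and the submitters' processing notes also name STAR and DESeq2. The counting model and annotation are not given in the sources used here. Between 88.6% and 90.2% of values under 20 were whole multiples (tolerance 0.01) of a step per library, which puts the depth at 15445811 to 17925630 reads. The others were not whole, so no count test was used.

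Values were compared as log2(value + 1) in R 4.3.3 with limma 3.58.1 (limma-trend, two-sided), in the 12507 genes that reached 10 in 3 or more of the 6 libraries. Fold changes are on that scale, which understates changes of low genes, except that the sum of Acaa1a and Acaa1b was compared by group means. The Benjamini-Hochberg adjustment covered all 12507 genes, with 0.05 as the threshold. The functions were tested on simulated counts with far fewer changed genes than were called here, as a check of the code and not of these calls. RPKM used the sum of values and the exon length of all GENCODE vM21 transcripts of a gene, merged. Ratios and ranks between genes depend on that length. Positions and promoters came from RefSeq on GRCm38. The members and lists were chosen with earlier results of these data known. All members are described by role, with the full statistics for the largest changes, and other lists by counts and at most their 2 largest rises and falls. Mvk, Ppara and Ucp1 were added after their values were seen, and some peroxisomal genes are not reported here. Targeting signals in the proteins, which had been foreseen, were not analysed here. Alternatives were other filters, pseudocounts, scalings, limma-voom, a fold threshold, a replicate block and leaving out each library. The labels number the cultures but do not say how they were grown, so p-values measure the spread between these samples. In limma-trend the variance of each gene is drawn toward a trend over all genes tested. A small p-value therefore rests in part on the spread of other genes. Exact tests of 3 against 3 cannot go below 0.1.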

Additional observations from a re-analysis of the deposited data

How the results depend on the processing

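Of the 34 genes, 27 kept their direction and their side of the threshold under all 14 other settings (for Ehhadh 13, since a filter at 50 removed it). The others (Pex2, Pex7, Pex10, Pex26, Decr2, Acot8 and Agps) changed only where a library was left out, and of these only Pex7 (-0.22 to 0.0091, the latter without KO replicate 2) and Acot8 (-0.30 to 0.10, the latter without Scr replicate 1) changed sign, both without passing in any setting. With each library left out in turn, 8 to 10 PEX genes, 14 to 16 metabolic genes and 6340 to 6596 of all genes passed. Requiring a change of at least 1.8-fold left 6 PEX genes, 10 metabolic genes and 2130 of all genes. The replicate number as a block gave 10, 15 and 7055. Same-numbered libraries did not deviate together (correlations of -0.024, -0.015 and 0.064), and not every library correlated best with its own number, so the block was not used.

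Ehhadh, Pex10, Pex11g and Abcd2 rest on the fewest reads in MICT1 KO libraries. The table lists only genes above 0 in every library, so a gene lost in one group would not be seen.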

Other observations

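Plin1, the gene of the lipid droplet coat protein perilipin and one of the adipocyte markers, is the neighbour of Pex11a on chromosome 7 (from 79721164 to 79732904, GRCm38). It lies on the same strand, 3052 bases away and with 0 RefSeq genes between them. Plin1 went from 2852 ± 221 (SD, n = 3) to 54.8 ± 35.6 (SD, n = 3), with a log2 fold change of -5.93 (SE 0.31, limma-trend adjusted p = 7.70e-13). This neighbour of the gene with the largest fall was looked up after its values were seen.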
